A study of Mus musculus with 12 samples.

Results

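The collagen genes were taken as every protein-coding gene of the deposited count table whose symbol is Col, a number, a and a number, which gave 44 genes of the 54532 in the table and of its 22046 protein-coding genes. By the structure their proteins form, these were 11 fibrillar collagens, 6 basement membrane network collagens (type IV), 3 hexagonal network collagens (types VIII and X), 6 beaded filament collagens (type VI), the anchoring fibril collagen VII, 9 FACIT collagens, 4 transmembrane collagens, 2 multiplexins and 2 others. All 44 are listed with the same coordinates in GENCODE release M21 (GRCm38). Their transcripts were followed by bulk RNA sequencing in 4 groups of 3 libraries from the newborn mouse testis. All pups carried the transgene Tg(Pou5f1-EGFP)2Mnn, in which Pou5f1 regulatory sequence drives a green fluorescent protein (GFP) in germ cells. In the dex groups, pregnant dams were injected with dexamethasone, a synthetic glucocorticoid, at 10 µg per g of body weight at E17.5 and E18.5, and the pups on the day of birth. The saline groups received saline on the same days. On postnatal day 1 the testes, without their tunica, were digested with trypsin and sorted into GFP-positive cells (dex germ, saline germ) and GFP-negative cells (dex somatic, saline somatic). As a figure legend of the study states, each replicate pooled testes from at least 2 litters that had been dosed independently. The p-values below thus measure the spread between such pools.

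Collagens are secreted or membrane-bound proteins in which 3 chains wind into a triple helix, and the chains of 1 molecule are often products of different genes. Fibrillar collagens form the tensile fibrils of connective tissue, with type I (Col1a1 and Col1a2) and type III (Col3a1) as the bulk and type V (Col5a1, Col5a2) as the minor component that sets fibril diameter. Type IV collagen forms the sheet of basement membranes, which in the testis surrounds the cords that hold Sertoli and germ cells. Type VI forms beaded microfilaments between cells and matrix, type VII anchors epithelial basement membranes to the stroma, and FACIT collagens such as XII and XIV sit on the surface of fibrils. The multiplexins XV and XVIII are proteoglycans of basement membrane zones. Glucocorticoids are known to alter collagen transcript levels in several connective tissues, in a direction that depends on the cell type and dose.

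Library totals lay between 18459692 and 25178477 counts, and levels are given as CPM, counts scaled to the size of the library, after TMM scaling over all 12 libraries. Summed levels of germ cell and Sertoli cell markers separated the sorted populations. The summed level of 10 germ cell markers was 3312 to 3542 CPM in germ libraries and 3.84 to 8.36 CPM in somatic libraries, and that of 10 Sertoli cell markers was 6034 to 6848 CPM in somatic and 59.1 to 95.6 CPM in germ libraries. Dppa3 of the germ list was near 0 in all groups (0.744 CPM in saline germ cells). Fgf9 of the Sertoli list was higher in saline germ than in saline somatic cells (4.76 against 0.893 CPM). So were Pecam1 (24.5 against 15.5 CPM) and Egfl7 (15.7 against 8.70 CPM) of an endothelial list. Among the dex somatic libraries, replicate 2 stood apart on the second principal component. In such bulk samples, fewer cells of a type and less RNA per cell cannot be told apart.

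The promoters of collagens that rose or fell with dex in somatic cells are shown before their values, since these genes were called in the same comparison. RefSeq windows (GRCm38.p6) were held for 8 of the 12 called collagens and for 35 of all 44. The 150 bases before the RefSeq start are given for the called collagens whose window meets no annotated exon, 3 that rose and 1, Col15a1, that fell; of Col6a2, which rose, 1 of its 2 windows also meets none and is not printed. Capitals mark a GC box (GGGCGG) on the shown strand or its complement, of which Col5a1 and Col7a1 hold 1 each.
Col5a1: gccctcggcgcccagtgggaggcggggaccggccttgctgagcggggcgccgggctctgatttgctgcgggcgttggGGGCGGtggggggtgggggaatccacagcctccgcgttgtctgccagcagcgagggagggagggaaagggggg
Col6a3: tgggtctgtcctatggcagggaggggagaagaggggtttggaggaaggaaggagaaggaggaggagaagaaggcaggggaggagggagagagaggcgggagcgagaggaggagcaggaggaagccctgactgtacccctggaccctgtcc
Col7a1: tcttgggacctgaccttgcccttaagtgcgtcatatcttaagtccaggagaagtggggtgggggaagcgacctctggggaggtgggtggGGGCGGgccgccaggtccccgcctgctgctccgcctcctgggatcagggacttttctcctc
Col15a1: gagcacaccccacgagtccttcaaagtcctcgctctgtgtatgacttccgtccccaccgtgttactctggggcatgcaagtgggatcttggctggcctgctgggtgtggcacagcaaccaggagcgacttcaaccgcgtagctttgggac
These windows lie at chr2:27886275-27886424 (+), chr1:90843972-90844121 (-), chr9:108953436-108953585 (+) and chr4:47207862-47208011 (+), each read in the direction of its gene. The RefSeq start of Col15a1 lies upstream of the start listed in the deposited table. Over the full 250 bases before the start, a GC box on either strand was found in 21 of 35 collagens (60.0%) and in 35.4% of 27025 genes. A CCAAT box (CCAAT) was found in 13 of 35 (37.1%) and in 37.5% of genes, and a TATA box (TATAAA) in 5 of 35 (14.3%) and in 14.3%. The hexamer AGAACA, part of the glucocorticoid receptor motif, was found in Col20a1 and Col9a1, 5.71% of the 35 against 18.2% of genes. A pair of these hexamers, inverted and 3 bases apart, was in no collagen window and in 0.0111% of genes. The 27025 genes are all symbols with a window, without a selection of protein-coding genes, and any matching window of a gene counted. Such matches are letters in a short window and describe no binding.

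Collagen transcripts made up a larger share of the somatic libraries with dex than with saline. The 44 genes together took 2.52%, 2.93% and 2.73% of all counts in dex somatic replicates 1, 2 and 3, and 1.99%, 2.35% and 1.86% in saline somatic replicates. The dex libraries were all above the saline libraries, at 2.72% ± 0.205 against 2.07% ± 0.256 (SD, n = 3). In germ libraries the share was far smaller, 0.0985%, 0.115% and 0.0895% with dex and 0.0922%, 0.1001% and 0.0968% with saline, and these groups overlapped.

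**Figure D1:**
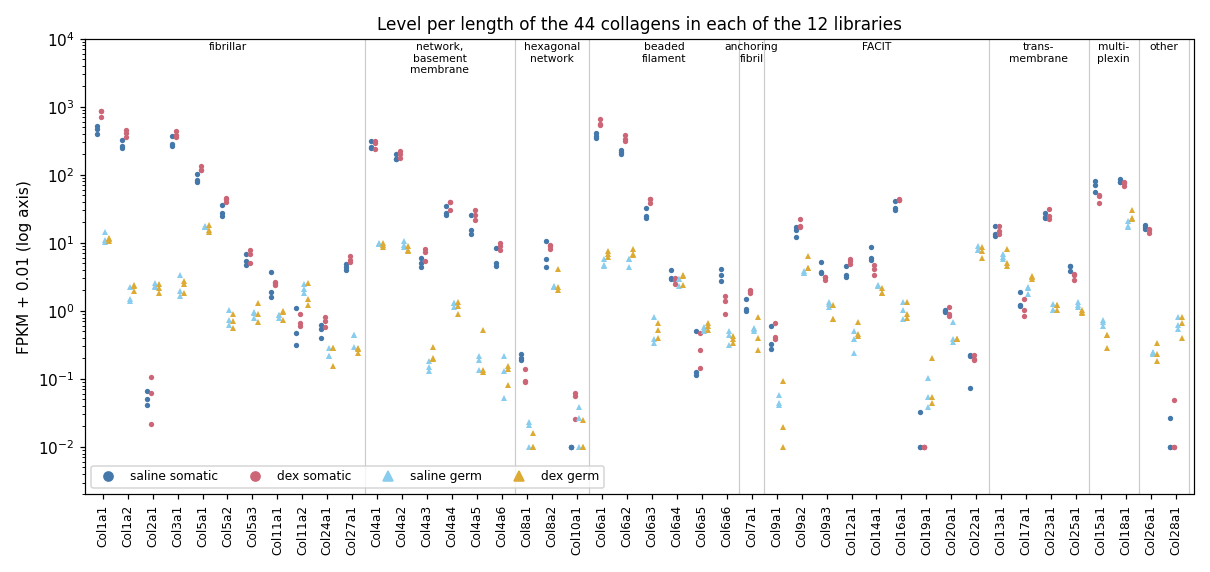
FPKM of the 44 collagens (log axis, 0.01 added so that values listed at 0 can be drawn), with the classes side by side and 1 point per library: circles are somatic and triangles germ libraries, 3 for each group. Col1a1 reaches 399.6 to 875 FPKM in somatic libraries and 10.3 to 14.4 FPKM in germ libraries, while Col22a1 and Col2a1 stand higher in germ libraries.

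Levels of different genes were compared per length, as the deposited FPKM. In saline somatic cells Col1a1 was the highest collagen at 464.5 ± 62.7 FPKM, followed by Col6a1 at 379 ± 31.2, Col3a1 at 307 ± 61.03, Col1a2 at 281 ± 40.9 and Col4a1 at 272 ± 33.9 FPKM (SD, n = 3). The ranges of neighbours in this order overlapped down to Col4a1. Below them, Col6a2 (219.5 ± 13.5), Col4a2 (179.5 ± 17.9) and Col5a1 (88.99 ± 13.0 FPKM) were each separated from the one above. Col18a1 (81.02 ± 4.41) overlapped both Col5a1 and Col15a1 (68.8 FPKM), and Col15a1 was separated from the next collagen, Col16a1. The gene length of 12426 bases listed for Col1a2 is long beside that of Col1a1 (6563), while their longest coding sequences are 4116 and 4359 bases, so the place of Col1a2 in the order depends on the length used.

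In saline germ cells the order differed. Col18a1, whose C-terminal fragment is endostatin, was highest at 18.47 ± 2.09 FPKM, then Col5a1 at 17.4 ± 0.343, Col1a1 at 11.95 ± 2.13, Col4a1 at 9.76 ± 0.279, Col4a2 at 9.55 ± 0.987 and Col22a1 at 8.20 ± 0.571 FPKM. Col18a1 and Col5a1 overlapped, and Col1a1 was separated from both of its neighbours. Col1a2 and Col3a1, in places 4 and 3 in somatic cells, were in places 18 and 14 in germ cells. Col18a1 shares 8825 bases with Slc19a1 on the opposite strand, and the germ libraries held 5260 counts of Slc19a1 beside 20312 of Col18a1. Since the strand setting of the counting is not given in the sources used here, reads of these genes may not be separable in the shared part.

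By class, fibrillar collagens held 45.2% ± 1.5 of the summed collagen FPKM in saline somatic cells, type VI 24.3% ± 1.04, type IV 19.5% ± 0.670 and multiplexins 5.77% ± 0.406. With dex the fibrillar share was 49.9% ± 2.18 and that of type VI 27.1% ± 0.506, each above saline in all 3 libraries. The type IV share was 15.6% ± 1.80 and the multiplexin share 3.34% ± 0.338, each below saline in all 3 libraries. A share within the collagens can fall only because another rose. Of the FPKM of all genes, type IV held 0.159% ± 0.0165 with dex and 0.159% ± 0.0203 with saline in somatic cells. Multiplexins held 0.0339% ± 0.001235 with dex and 0.0467% ± 0.00241 with saline. In saline germ cells the fibrillar share was 32.2% ± 2.21, while FACIT collagens held 13.7% ± 0.292 against 2.505% ± 0.115 in saline somatic cells, transmembrane collagens 8.34% ± 0.721 against 1.74% ± 0.0641, and multiplexins 15.03% ± 1.46. Dex germ cells had larger shares of multiplexin (19.02% ± 0.781) and type VI (13.8% ± 0.469) than saline germ cells (11.4% ± 0.434 for type VI), with no overlap between the groups in either class. Of the 2 multiplexins, Col18a1 had a log2 fold change of 0.43 and Col15a1 of -0.84 in germ cells. The shares of fibrillar (28.9% ± 1.21), type IV (14.3% ± 0.727 against 16.5% ± 0.537) and FACIT collagen (12.8% ± 0.744) were smaller in dex germ cells, also without overlap. The gap was narrow for fibrillar (29.85% against 29.87%) and FACIT collagens (13.33% against 13.39%). With dex the fibrillar share was thus below saline in germ libraries and above it in somatic libraries. Of the FPKM of all genes, fibrillar collagens held 0.0136% ± 0.00111 in dex germ and 0.0140% ± 0.00139 in saline germ cells. FACIT collagens held 0.00606% ± 0.00107 and 0.005965% ± 0.000338. These shares are descriptions and were not tested.

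**Figure D2:**
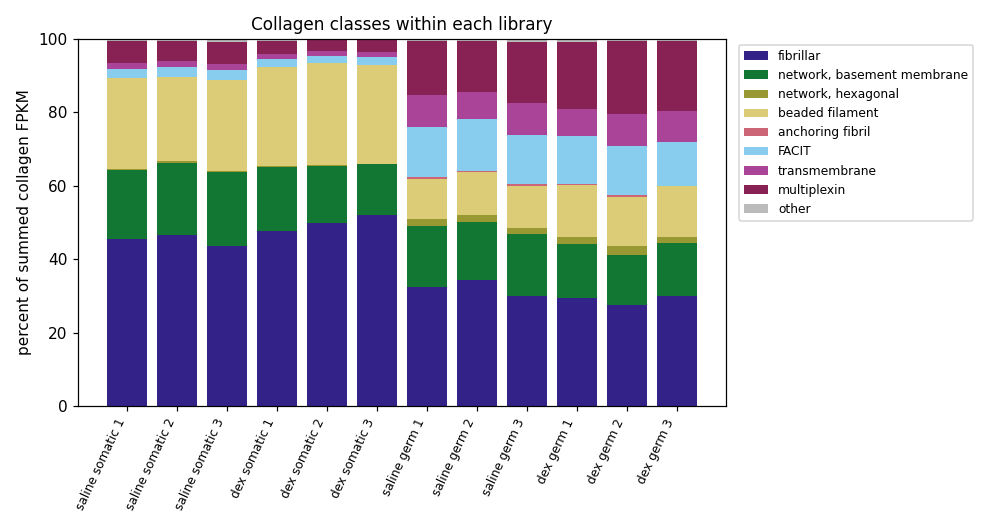
Share of each collagen class in the summed collagen FPKM of a library (percent), 1 bar per library and 3 per group. Fibrillar collagens fill 43.6% to 52.1% of the somatic bars and 27.5% to 34.3% of the germ bars, and multiplexins 3.02% to 6.05% of the somatic and 13.8% to 19.8% of the germ bars.

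Dex against saline in somatic cells asks which collagens of the GFP-negative testis respond to the glucocorticoid. Of 41 collagens tested, 9 rose and 3 fell, which is 29.3%, while 3.91% of all 16766 genes tested were called (edgeR quasi-likelihood test, Benjamini-Hochberg adjusted p at or under 0.05). By direction, 2.74% of all genes were higher and 1.17% lower. The median log2 fold change was 0.296 over the 41 collagens and -0.00664 over all genes, with collagen values from -1.38 to 0.82. Col1a1, Col1a2, Col5a1, Col5a2, Col6a1, Col6a2, Col6a3, Col7a1 and Col12a1 rose, and Col6a6, Col14a1 and Col15a1 fell. Col10a1, Col19a1 and Col28a1 had too few counts to be tested.

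**Figure D3:**
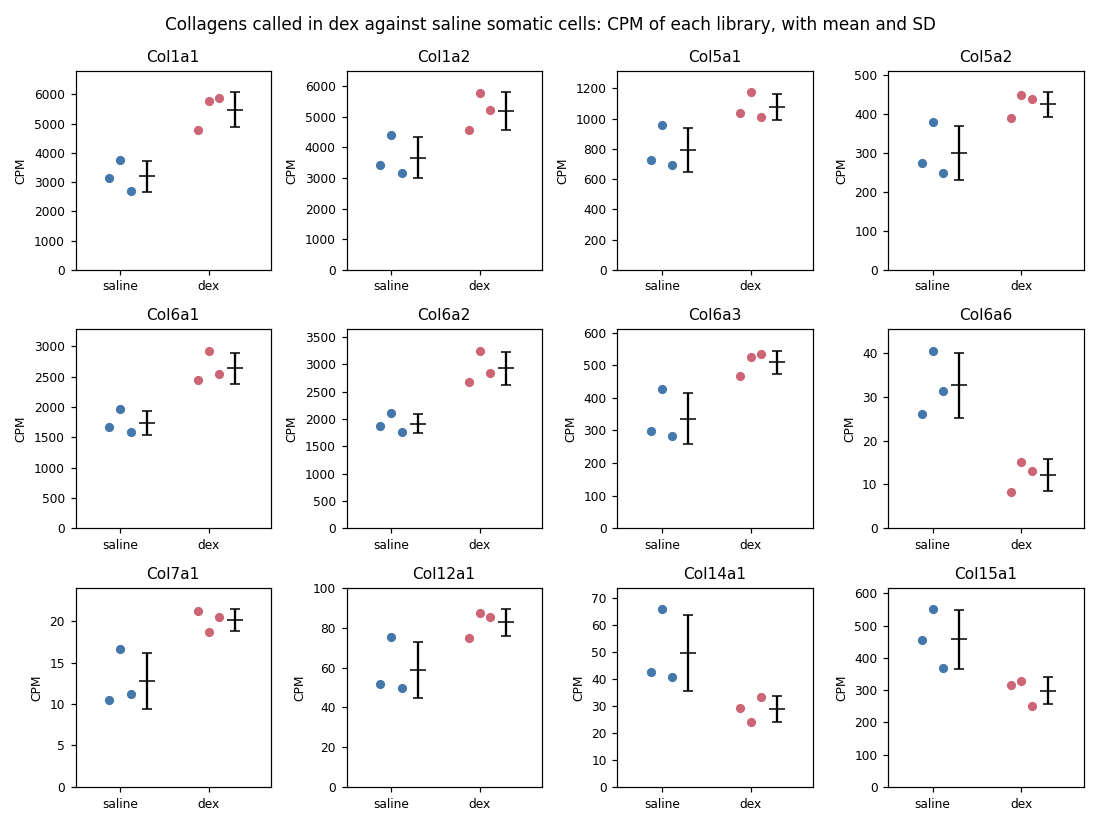
CPM of the 12 collagens called between dex and saline somatic cells, 1 point per library (3 saline in blue, 3 dex in red) with the mean and SD beside them, every axis starting at 0. In 11 of the 12 panels the dex libraries do not overlap the saline libraries, as in 21.5% of all genes tested. The panels show genes called in these same libraries, so little overlap follows from that choice. Over all 44 collagens, tested or not, the dex libraries lie wholly above saline in 10 and wholly below in 7. The 10 include Col10a1, which had 1 to 3 counts per library with dex, 0 with saline and was not tested. In the panel of Col12a1, saline replicate 2 (75.2) lies just above dex replicate 1 (75.1).

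Among fibrillar collagens, all 11 were tested, 4 rose, none fell, and all 11 log2 values were above 0. Col1a1 (ENSMUSG00000001506, GRCm38 chromosome 11, 94936224 to 94953042), the α1 chain of type I, stood at 4786, 5783 and 5863 CPM in dex replicates 1 to 3 and at 3145, 3740 and 2696 CPM in saline replicates. The lowest dex library was above the highest saline library, and the log2 fold change was 0.82 ± 0.11 (SE; edgeR adjusted p 0.000282). Col1a2 (ENSMUSG00000029661, chromosome 6, 4504814 to 4541544), the α2 chain, stood at 4551, 5785 and 5220 CPM with dex and 3432, 4405 and 3154 CPM with saline. Saline replicate 2 came close to the lowest dex library, and the change was 0.54 ± 0.11 (adjusted p 0.0098).

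Col5a1 (chromosome 2, 27886425 to 28039514), the α1 chain of the type V collagen that nucleates fibrils, stood at 1039, 1175 and 1013 CPM with dex and 724, 957 and 695.5 CPM with saline, a change of 0.48 ± 0.10 (edgeR adjusted p 0.0113). Col5a2 (chromosome 1, 45374321 to 45503282) stood at 388, 447 and 436 CPM against 273, 378 and 248 CPM, a change of 0.54 ± 0.11 (adjusted p 0.0114). In both, all dex libraries were above all saline libraries, with saline replicate 2 nearest to them. Col3a1 (chromosome 1, 45311538 to 45349706), tail to tail with Col5a2 at a distance of 24614 bases, was not called. Its levels were 3562, 4333 and 3858 CPM with dex and 2825, 4010 and 2644 CPM with saline, so saline replicate 2 lay within the dex range. The log2 fold change of Col3a1 was 0.35 ± 0.12 (adjusted p 0.127), and it was called in 3 of 13 alternative fits, at 0.52 (adjusted p 0.00292) without that saline library, 0.36 (adjusted p 0.0297) with a replicate block and 0.35 (adjusted p 0.000532) with every gene that has a count. Col27a1 had a value of 0.37 ± 0.11 (adjusted p 0.08), and those of Col2a1, Col5a3, Col11a1, Col11a2 and Col24a1 were 0.08 to 0.45 with adjusted p-values from 0.496 to 0.915.

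Of the 6 type IV collagens none was called, although all 6 log2 values were above 0 and 4 had an unadjusted p under 0.05, as had 16.1% of all genes. Col4a1 (chromosome 8, 11198423 to 11312826) and Col4a2 (chromosome 8, 11312805 to 11449287) lie head to head with an overlap of 22 bases and encode the common basement membrane chains. Col4a1 stood at 2244, 2366 and 1852 CPM with dex and 1939, 2520 and 1921 CPM with saline, and Col4a2 at 1374, 1487 and 1203 against 1142, 1438 and 1152 CPM. Both groups overlapped in both genes, with log2 fold changes of 0.06 ± 0.10 and 0.16 ± 0.09 (edgeR adjusted p 0.85 and 0.441). The rarer chains Col4a3, Col4a4, Col4a5 and Col4a6 had larger values of 0.42, 0.32, 0.50 and 0.56, with adjusted p-values from 0.103 to 0.182. Of the hexagonal network collagens, Col8a2 stood at 36.2 to 42.3 CPM with dex and 20.4 to 51.8 CPM with saline, Col8a1 at 0.643 to 1.04 against 1.43 to 1.77 CPM, and neither was called (adjusted p 0.51 and 0.437).

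Type VI collagen genes were called in both directions. The chains of the classical α1α2α3 molecule rose. Col6a1 (chromosome 10, 76708792 to 76726168) stood at 2445, 2929 and 2538 CPM with dex and 1664, 1967 and 1587 CPM with saline, a log2 fold change of 0.64 ± 0.09 (edgeR adjusted p 0.000602). Col6a2 (chromosome 10, 76595762 to 76623630), in the same direction 85161 bases away, stood at 2677, 3248 and 2839 CPM against 1875, 2102 and 1760 CPM, a change of 0.65 ± 0.09 (adjusted p 0.000449). Col6a3 (chromosome 1, 90765923 to 90843971) stood at 468, 524 and 535 CPM against 299.7, 426 and 282 CPM, a change of 0.64 ± 0.11 (adjusted p 0.00351). In all 3 genes the lowest dex library was above the highest saline library.

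The α3-like chains Col6a4, Col6a5 and Col6a6 lie in a row on chromosome 9, with 27917 and 28810 bases between them. Col6a6 (chromosome 9, 105687809 to 105828160) fell, from 25.95, 40.5 and 31.3 CPM in saline to 8.24, 15.2 and 13.1 CPM in dex replicates. No dex library reached the lowest saline library, and the log2 fold change of -1.38 ± 0.20 was the most negative among the collagens tested (edgeR adjusted p 0.000712). Col6a4 (21.6 to 26.2 CPM with dex, 26.0 to 36.4 CPM with saline) and Col6a5 (1.32 to 4.45 against 1.08 to 4.81 CPM) were not called, with adjusted p-values of 0.436 and 0.893.

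Col7a1 (chromosome 9, 108953586 to 108984875), the anchoring fibril chain, stood at 21.3, 18.7 and 20.5 CPM with dex and 10.4, 16.6 and 11.2 CPM with saline, and rose by 0.70 ± 0.17 on the log2 scale (edgeR adjusted p 0.0296). Of the 8 FACIT collagens tested, Col12a1 rose and Col14a1 fell. Col12a1 (chromosome 9, 79598991 to 79718831) stood at 75.1, 87.5 and 85.7 CPM with dex and 51.8, 75.2 and 49.8 CPM with saline, where saline replicate 2 lay just above dex replicate 1, and its change was 0.53 ± 0.12 (adjusted p 0.0249). Col14a1 (chromosome 15, 55307750 to 55520803), which like Col12a1 binds the surface of fibrils, stood at 29.3, 23.99 and 33.5 CPM with dex and 42.7, 66.01 and 40.7 CPM with saline, a change of -0.74 ± 0.16 (adjusted p 0.0156). Col9a2, Col16a1 and Col9a3 had values of 0.36, 0.31 and -0.46 (adjusted p 0.186, 0.097 and 0.192). Col9a1, Col20a1 and Col22a1 had adjusted p-values from 0.82 to 0.957.

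Of the multiplexins, Col15a1 fell. Col15a1 (chromosome 4, 47208161 to 47313167), a basement membrane proteoglycan, stood at 316, 328 and 251 CPM with dex and 455, 551.5 and 368 CPM with saline, with all dex libraries below all saline libraries and a log2 fold change of -0.58 ± 0.12 (edgeR adjusted p 0.0108). Col18a1 (chromosome 10, 77052178 to 77166548) stood at 541, 487 and 561 against 569, 593 and 621 CPM, also without overlap, as in 21.5% of all genes tested, but its change of -0.13 ± 0.08 was not called (adjusted p 0.469). Of the transmembrane collagens none was called: Col25a1 had the lowest adjusted p (0.0561, log2 fold change -0.41), and Col13a1, Col17a1 and Col23a1 had values from -0.37 to 0.07. Col26a1 had a value of -0.18 (adjusted p 0.329).

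The calls differed in how they held. Col1a1, Col6a1, Col6a2 and Col6a6 were called in all 13 alternative fits, while Col7a1 was called in 7, Col5a2 and Col12a1 in 8, Col1a2, Col5a1 and Col14a1 in 10, Col15a1 in 11 and Col6a3 in 12. The count of 12 became 10, 7 and 9 when dex replicate 1, 2 or 3 was left out, in that order. Leaving out saline replicate 1, 2 or 3 gave 6, 17 and 7 calls in that order. All 12 libraries in the fit gave 7. Over all genes, 655 calls became 512, 398 and 444 without dex replicates 1 to 3. They became 383, 547 and 354 without saline replicates 1 to 3, and 541 with all 12 libraries in the fit. With library totals in place of TMM, 9 collagens were higher and 4 lower, and over all genes the calls went from 459 higher and 196 lower to 379 and 329.

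Markers of other cell types differed between these groups. The summed level of 8 stromal and fibroblast markers was 2806 to 3246 CPM in dex and 1962 to 2666 CPM in saline somatic libraries, and 2 of the 8 rose, Pdgfra (log2 fold change 0.50) and Dcn (0.72, edgeR adjusted p 0.000986), the small proteoglycan that coats collagen fibrils. That of 8 peritubular and smooth muscle markers was 1903 to 2178 against 1597 to 1817 CPM, with Acta2 (0.44), Des (1.13) and Lmod1 (0.58) called higher. Of 8 macrophage markers, Csf1r, Lyz2 and Mrc1 fell, and the sum was 24.3 to 34.7 CPM with dex and 54.7 to 93.8 CPM with saline. The sums of the Sertoli list (6034 to 6848 against 6274 to 6816 CPM), the Leydig list (304.9 to 415 against 338 to 447), the endothelial list (253 to 323 against 263 to 293.5) and the erythroid list (82.7 to 291.5 against 248 to 389) overlapped between dex and saline, although Star of the Leydig list, Tek of the endothelial list and 2 erythroid genes fell. The part of these markers in the collagen differences was not tested.

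Chain pairs were compared within libraries as the ratio of counts per base of the longest coding sequence. The ratios depend on the length used. Per listed gene length, that of Col1a1 to Col1a2 was 2.00 ± 0.117 with dex and 1.65 ± 0.0706 with saline in somatic cells and 5.197 ± 0.795 and 7.17 ± 0.655 in germ cells, and that of Col6a1 to Col6a2 was 1.72 ± 0.0187 and 1.73 ± 0.0471 in somatic cells (SD, n = 3). The choice scales all libraries alike, so only the difference between groups, and not the level of a ratio, is independent of it. Per coding length, the ratio of Col1a1 to Col1a2 was 0.993, 0.944 and 1.06 in dex somatic replicates and 0.865, 0.802 and 0.807 in saline somatic replicates, all dex libraries above all saline libraries. The difference was 0.28 on the log2 scale (two-sided exact permutation test, p = 0.1, the smallest that 3 against 3 libraries can give). In germ libraries the ratio was 2.31, 3.05 and 2.42 with dex and 3.77, 3.20 and 3.76 with saline, so the dex libraries lay below (exact permutation p = 0.1). The ratio of Col6a1 to Col6a2 differed by less than the spread between replicates, at 0.911 ± 0.00991 with dex and 0.916 ± 0.0250 with saline in somatic cells (SD, n = 3; exact permutation p = 0.9), while Col6a3 stood at only 0.0605 ± 0.00499 and 0.0597 ± 0.00677 of Col6a1. The ratio of Col4a1 to Col4a2 was 1.62 ± 0.0481 with dex and 1.74 ± 0.0441 with saline in somatic cells (exact permutation p = 0.1). In germ cells it was 1.33 ± 0.0521 and 1.19 ± 0.109 (exact permutation p = 0.1). The ratio of Col4a3 to Col4a4 in germ cells was 0.185 ± 0.0255 with dex and 0.111 ± 0.0205 with saline (exact permutation p = 0.1). Its log2 difference of 0.75 was the largest of the germ ratios, on 23 to 59 counts of Col4a3 per library. In somatic cells that ratio was 0.180 ± 0.0156 and 0.169 ± 0.00826 (exact permutation p = 0.4). In all, 7 such ratios were computed in each population, and the Benjamini-Hochberg adjusted value of these exact permutation p of 0.1 was 0.35 in somatic and 0.233 in germ cells.

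Dex against saline in germ cells asks the same of the GFP-positive cells, where 1.25% of 18550 genes tested were called. None of the 40 collagens tested was called by edgeR, and 9 of the 40 had an unadjusted p under 0.05, as had 14.7% of all genes. DESeq2 called 4 of 38, and 4.55% of all 14842 genes it tested. All 4 were higher: Col18a1, Col17a1, Col6a2 and Col6a1, with adjusted p-values of 0.00649, 0.0158, 0.0313 and 0.0464. The median over the 40 was -0.0687, with 18 values above and 22 below 0. Col8a1, Col9a1, Col10a1 and Col19a1 were not tested.

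**Figure D4:**
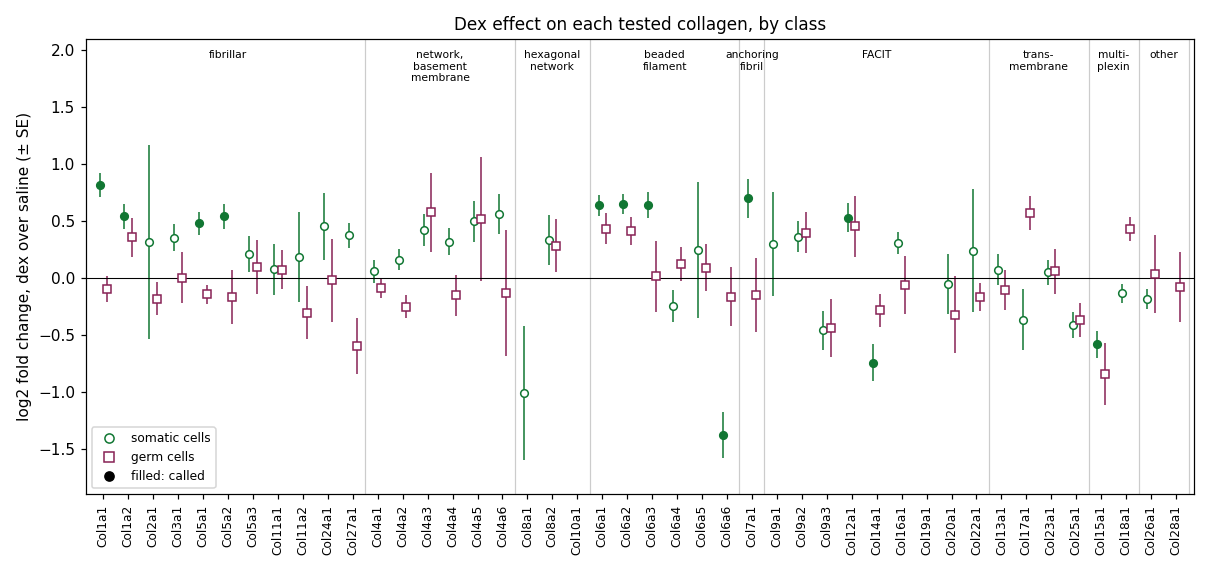
Log2 fold change of dex over saline (± SE) for each collagen tested, by class, in somatic cells (green circles, 3 against 3 libraries) and germ cells (purple squares, 3 against 3). Filled symbols are called at an adjusted p of 0.05: 12 somatic values are filled, 9 above and 3 below 0, and no germ value is.

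Col18a1 had the lowest adjusted p in germ cells. It stood at 162, 209.7 and 159 CPM in dex germ replicates and 121, 123 and 146 CPM in saline germ replicates, without overlap, and its log2 fold change of 0.43 ± 0.10 missed the threshold (edgeR adjusted p 0.0625). Col17a1, a transmembrane collagen of hemidesmosomes, had a value of 0.57 ± 0.15 (16.9 to 18.9 CPM against 10.3 to 13.02; adjusted p 0.079). Col6a2 stood at 57.01, 68.3 and 54.6 CPM with dex and 37.5, 48.98 and 47.8 CPM with saline (0.41 ± 0.12, adjusted p 0.108), and Col6a1 at 29.8, 33.03 and 26.7 against 20.01, 25.1 and 20.7 CPM (0.44 ± 0.13, adjusted p 0.129). In all 4 genes the groups did not overlap, as in 20.1% of all genes tested. Col15a1 had a value of -0.84 ± 0.27 at 1.72 to 2.73 CPM with dex and 3.76 to 4.70 CPM with saline (adjusted p 0.149).

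The collagens that rose in somatic cells had values of both signs in germ cells. Col1a1 stood at 70.2, 77.3 and 74.5 CPM in dex germ and 73.5, 94.9 and 67.7 CPM in saline germ libraries (-0.10 ± 0.11, edgeR adjusted p 0.747). Col1a2 stood at 28.7, 23.95 and 29.1 against 18.4, 28.01 and 17.02 CPM (0.36 ± 0.17, adjusted p 0.359), and Col5a1 at 129, 154 and 122 against 146, 152 and 147 CPM (-0.14 ± 0.09, adjusted p 0.476). In each of these the dex and saline libraries overlapped. Col4a1, which was not called in somatic cells either, stood at 68.8, 75.2 and 64.3 CPM in dex germ and 71.2, 75.3 and 72.9 CPM in saline germ libraries (-0.08 ± 0.09, adjusted p 0.718). Of the somatic markers in germ libraries, Ptch1 of the peritubular list rose (0.35 ± 0.08, edgeR adjusted p 0.0351) and Inha of the Sertoli list (-0.90 ± 0.18, adjusted p 0.0233) and Gsta4 of the Leydig list (-0.59 ± 0.12, adjusted p 0.0263) fell. The summed peritubular list was 192.5 to 196 CPM in dex germ and 144 to 154 CPM in saline germ libraries, of which Ptch1 alone made up 165.5 and 129 CPM on average, while Acta2 stood at 3.37 and 2.84 and Myh11 at 3.99 and 3.84 CPM. The Sertoli list summed to 59.1 to 68.7 against 76.0 to 95.6 CPM, and the stromal list, with overlap and no member called, to 60.09 to 66.6 against 55.7 to 62.6 CPM. Their part in the collagen values was not tested.

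Whether the effect of dex differed between the populations was tested as germ minus somatic over all 12 libraries. Of 42 collagens tested 1 was called, Col1a1, and of all 20551 genes 0.827%. The log2 difference of Col1a1 was -0.87 ± 0.18 (edgeR adjusted p 0.0282), and it was called in 14 of 18 alternative fits; without dex germ replicate 1, dex somatic replicate 2, dex somatic replicate 3 or saline somatic replicate 3 its adjusted p was 0.0544 to 0.0624. Col18a1 (0.60 ± 0.15, adjusted p 0.0646), Col27a1 (-0.93 ± 0.23, adjusted p 0.065) and Col5a1 (-0.58 ± 0.16, adjusted p 0.0932) came next, and Col6a6 had a value of 1.26 ± 0.34 (adjusted p 0.102). DESeq2 called these 4 and Col1a1, with adjusted p-values of 0.0111 for Col18a1, 0.00556 for Col27a1, 0.0078 for Col5a1 and 0.0229 for Col6a6, where 3.37% of all 18415 genes were called. For the other members neither tool called a difference between the populations.

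Germ against somatic cells asks which collagen transcripts belong to which sorted population. In saline, 36 of the 42 collagens tested were lower and 4 higher in germ cells. Of all 18870 genes tested 76.5% were called, 36.7% lower and 39.8% higher. With dex, 35 collagens were lower and 5 higher, and of all 18778 genes 76.3% were called, 35.7% lower and 40.5% higher. A call is thus common to most genes, while lower values made up a larger share of the collagens than of all genes. Col1a2 and Col3a1 had the most negative log2 fold changes of germ over somatic cells in saline, -7.50 and -7.18. Saline germ cells held Col1a2 at 0.577%, Col3a1 at 0.721% and Col1a1 at 2.46% of the saline somatic CPM. Col5a1 stood at 18.7%, Col18a1 at 21.9%, Col14a1 at 33.0% and Col7a1 at 43.1%.

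**Figure D5:**
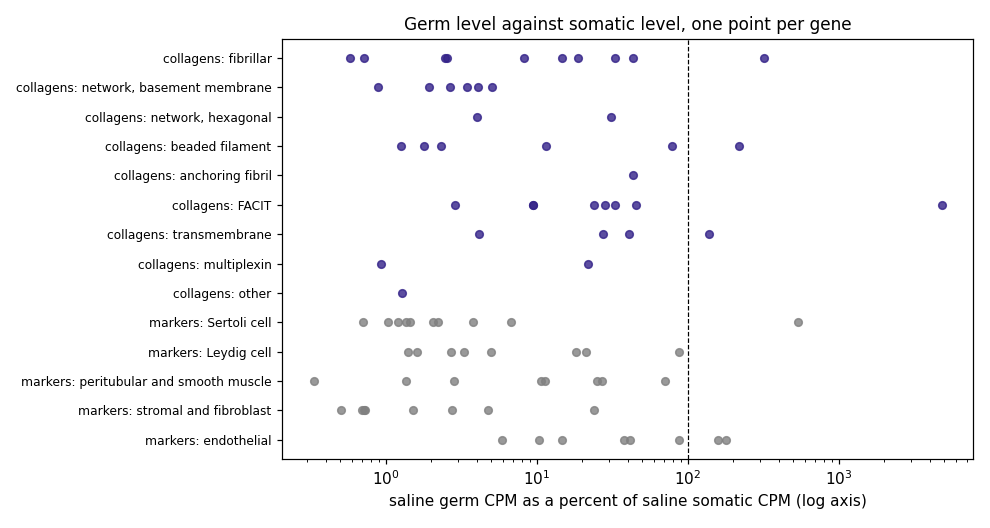
CPM in saline germ cells as a percent of CPM in saline somatic cells (log axis, means of 3 libraries each), 1 point per gene, for collagens by class in blue and for somatic marker lists in grey; the dashed line is equality. Col10a1, Col2a1, Col19a1 and Col28a1 are left out because their somatic mean is under 1 CPM. Col22a1 lies far to the right at 4820%, and Col1a2 is the lowest collagen.

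For comparison, the 8 stromal and fibroblast markers stood in saline germ cells at 0.508% to 23.9% of their somatic level, with a median of 1.13%, and the 10 Sertoli markers at 0.707% to 533%, with a median of 1.76%. Medians were higher for the Leydig (4.16%, range 1.4% to 87.5%), peritubular and smooth muscle (11%, 0.334% to 70.8%) and endothelial lists (39.4%, 5.85% to 180%). Among collagens, Col4a5 stood at 0.897%, Col15a1 at 0.929% and Col6a1 at 1.26%. How much of the collagen reads in germ libraries came from somatic RNA was not tested.

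The collagens higher in saline germ cells were Col2a1, Col22a1, Col28a1 and Col11a2. Col22a1 (chromosome 15, 71795795 to 72034227), a FACIT collagen known from tissue junctions, stood at 72.5, 82.05 and 72.8 CPM in saline germ and 0.591, 2.08 and 2.05 CPM in saline somatic libraries, a log2 fold change of 5.51 ± 0.27 (edgeR adjusted p 2.41e-09). It stood at 69.4, 80.4 and 54.3 CPM in dex germ cells, which overlapped saline. Col2a1 (chromosome 15, 97975602 to 98004695), the main fibril chain of cartilage, stood at 21.1, 24.1 and 21.7 CPM against 0.295, 0.563 and 0.381 CPM, a change of 5.65 ± 0.26 (adjusted p 1.35e-09). In both genes every germ library was above every somatic library by a wide margin, and dex germ cells held Col2a1 at 16.6 to 22.8 CPM.

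Col28a1 (chromosome 6, 7997808 to 8192617), a collagen with von Willebrand factor A domains, had 195 counts over the 3 saline germ libraries and 2 over the 3 saline somatic libraries. The ratio of germ to somatic level was 102, with an exact 95% interval of 27.8 to 846 that covers counting error only. With dex the counts were 208 and 4. Col11a2 (chromosome 17, 34039437 to 34066685), a partner chain of cartilage fibrils, stood at 14.2, 12.8 and 16.6 CPM in saline germ and 2.17, 8.10 and 3.29 CPM in saline somatic cells (1.61 ± 0.37, edgeR adjusted p 0.00177). Of 8 chondrocyte and osteoblast markers, the summed level was 22.9 to 30.6 CPM in germ and 21.7 to 30.1 CPM in somatic libraries. Acan (9.24 CPM in saline germ and 16.6 CPM in saline somatic cells) and Sox5 (6.43 and 8.79 CPM) made up most of the somatic sum. Comp stood higher in saline germ cells at 6.43 against 0.25 CPM, as did Matn1 (0.422 against 0.0159) and Matn3 (0.616 against 0.201 CPM). Bglap, Ibsp and Sp7 were under 1 CPM in both. The part of these markers in the collagen values was not tested. Col17a1 was called higher in germ cells with dex (1.38 ± 0.23, adjusted p 0.000133) but not in saline (0.42 ± 0.22, adjusted p 0.104), and the difference between these was itself not called (adjusted p 0.192).

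A list of 59 genes that modify, secrete, cross-link, cleave or bind collagen was counted in the same fits. In somatic cells 52 were tested, 10 rose and 1 fell with dex, where 3.91% of all genes were called. Modifying enzymes had 2 of 15 called, chaperones and secretion factors 1 of 7 and genes of propeptide cleavage 3 of 6. Cross-linking enzymes had 1 of 6, collagenases and gelatinases 3 of 6, metalloproteinase inhibitors 1 of 4 and collagen receptors 0 of 8. In germ cells none of 53 tested was called, and 14 had an unadjusted p under 0.05 (edgeR), 5 of them among the 7 chaperones and secretion factors, against 14.7% of all genes. Between the populations, the dex effect on 3 of 55 tested differed, against 0.827% of all genes, with a lower log2 fold change in germ than in somatic cells for all of them: Adamts14, Sparc and Timp1.

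Adamts14, a proteinase that removes the N-propeptide of fibrillar procollagens, stood at 78.7, 72.9 and 70.1 CPM in dex somatic and 37.03, 39.98 and 37.8 CPM in saline somatic libraries (log2 fold change 0.98 ± 0.10, edgeR adjusted p 3.1e-05). Creb3l1, a transcription factor of secretory cells known to act on type I collagen genes, stood at 154, 188 and 159.5 against 101, 103 and 106 CPM (0.73 ± 0.09). Timp2, an inhibitor of metalloproteinases, stood at 480, 566 and 436 against 289, 345 and 301 CPM (0.70 ± 0.10). Lox, which oxidizes lysines for cross-links, stood at 163, 251 and 166 against 104, 135.5 and 93.96 CPM (0.84 ± 0.15, adjusted p 0.00372). In each of these 4 called genes the dex libraries lay above all saline libraries, while 21.5% of all genes tested did not overlap.

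Pcolce, the enhancer of C-propeptide removal, rose by 0.41 ± 0.08 and Plod3, a lysyl hydroxylase, by 0.47 ± 0.10 on the log2 scale. Mmp8, a collagenase known from neutrophils, stood at 3.79, 7.27 and 2.37 CPM with dex and 1.18, 0.65 and 1.05 CPM with saline (2.25 ± 0.49, edgeR adjusted p 0.0157), and Tll1, a C-proteinase, at 8.62, 12.8 and 7.47 against 5.02, 3.68 and 4.15 CPM (1.2 ± 0.27). The others called were P4ha2, Mmp14 and, as the only fall of the list, Fap. Serpinh1, the collagen chaperone HSP47, stood at 1083, 1201 and 961 CPM with dex and 1029, 1190 and 1089 CPM with saline, and was not called.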

How the data were processed

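Bulk RNA was sequenced from sorted cells in 12 libraries, 3 in each of 4 groups. Per the study's methods and processing notes, poly-dT mRNA was read paired-end, aligned to mm10 with HISAT2 2.0.5 and counted per gene with featureCounts 1.5.0-p3. The deposited table holds raw counts and the FPKM the authors computed from them with the listed gene length. The annotation release and strand setting are not given in the sources used here. The authors' tables of fold changes and p-values from DESeq2 1.20.0 were not used. All columns of per-sample values were mapped by name.

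Counts were tested with the quasi-likelihood test of edgeR 4.0.16 in R 4.3.3, with TMM scaling, filterByExpr at a minimum count of 10, and Benjamini-Hochberg adjustment over all genes. Each comparison used its own 6 libraries, and the difference of dex effects all 12. A call is an adjusted p at or under 0.05. Scripts were tested on simulated counts. DESeq2 1.42.0, other scalings, other filters, a replicate block, a fit of all 12 libraries and each library left out were the alternatives. A count of 3 corresponds to 0.114 to 0.165 CPM.

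The collagens, their classes, the marker lists and the list of collagen-handling genes were chosen with earlier results of these data known. Collagens named with full values are those called in a dex comparison or in the difference, the 10 highest by FPKM in saline somatic cells, the 3 highest in saline germ cells and those called higher in saline germ cells. Others are named to account for each class. Of collagen-handling genes, up to 8 called per comparison are named by adjusted p, and others were chosen after their values were seen. Replicates are pools of litters with no batch in the labels, and same-numbered libraries were not taken as pairs. Promoter windows are from RefSeq (GRCm38.p6).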

Additional observations from a re-analysis of the deposited data

Results flagged for a closer look

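In 4 genes the effect of dex differed between germ and somatic cells by a test of the difference itself (edgeR quasi-likelihood test over 12 libraries). These were 1 of 42 collagens and 3 of 55 collagen-handling genes tested, where 0.827% of all 20551 genes were called. The log2 difference, germ minus somatic, was -0.87 for Col1a1 (adjusted p 0.0282). It was -0.94 for Adamts14 (adjusted p 0.0104), which stood at 13.3 to 16.3 CPM in dex germ and 14.3 to 15.4 CPM in saline germ libraries. It was -0.61 for Sparc (adjusted p 0.0149), a collagen-binding glycoprotein, at 19.3 to 20.4 CPM in dex germ and 24.8 to 30.04 CPM in saline germ libraries, against 2951 to 3224 and 2665 to 2888 CPM in dex and saline somatic libraries. It was -1.32 for Timp1 (adjusted p 0.0248), an inhibitor of metalloproteinases, at 2.58 to 3.72 and 4.64 to 6.60 CPM in dex and saline germ libraries and 28.2 to 38.8 and 25.7 to 26.6 CPM in dex and saline somatic libraries. How much of the germ values of these genes came from somatic RNA was not tested. Some alternative fits did not call the difference of Col1a1, as given above. Adamts14, Sparc and Timp1 were not followed through the alternative fits.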

How the results depend on the processing

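All collagens called in somatic cells kept their direction in the 13 alternatives. Their number, 12, was 20 with every gene that has a count, 7 with all 12 libraries in one fit, and 6 to 17 with a library left out. Over all genes, 655 calls became 1061 with every gene that has a count and 541 with all 12 libraries in one fit. With a library left out they became 354 to 547. In germ cells, 3 collagens were called with every gene that has a count, 4 with DESeq2 and 0 to 1 with a library left out, and over all genes 231 calls became 767, 675 with DESeq2, 142 with all 12 libraries in one fit and 49 to 265 with a library left out. In the difference of dex effects, 1 collagen became 7 with every gene that has a count, 4 with at least 10 counts in every library, 5 with DESeq2 and 0 to 2 with a library left out, and 170 calls over all genes became 706, 262, 620 and 79 to 172 in that order. The collagen share as summed FPKM was 0.0473% in dex germ, 0.0436% in saline germ, 1.02% in dex somatic and 0.814% in saline somatic cells. The cause of these changes was not tested.

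Uncalled values changed sign as follows. With library totals, Col4a1 in somatic cells was -0.0033 and the difference of Col12a1 was 0.00036. With a library left out, somatic values ran from -0.0144 to 0.16 for Col4a1, -0.13 to 0.86 for Col11a2, -0.39 to 0.78 for Col2a1 and -0.14 to 0.50 for Col22a1. Germ values ran from -0.19 to 0.36 for Col3a1, -0.22 to 0.54 for Col6a3, -0.74 to 0.15 for Col7a1, -0.32 to 0.16 for Col28a1, -0.20 to 0.0589 for Col1a1 and -0.35 to 0.0732 for Col5a2. Differences ran from -0.31 to 0.22 for Col12a1, -0.30 to 0.0803 for Col1a2, -0.51 to 0.0162 for Col3a1, -0.92 to 0.25 for Col2a1 and -3.72 to 2.59 for Col28a1.

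The labels do not say whether same-numbered germ and somatic libraries came from the same pools, and this was not settled here. Between germ and somatic cells, same-numbered deviations correlated at 0.0366 to 0.045 in saline and at -0.0164 to -0.00286 with dex. Between dex and saline libraries, which came from differently treated animals, they correlated at -0.0876 to 0.044. In the comparison of germ with somatic cells, 6 of 6 saline and 0 of 6 dex libraries correlated best with their own number, and 2 of 6 in each dex comparison. With a replicate block, 15 collagens were called in somatic cells, 0 in germ cells and 1 in the difference, and over all genes 669, 65 and 90. For germ against somatic cells the block gave 41 collagens in saline and 40 with dex, against 40 in each without it. Col18a1 in germ cells was called only without saline germ replicate 3 among the libraries left out (0.52, edgeR adjusted p 0.0318). Col10a1 had at most 3 counts in a library, too few for a comparison at this depth. Col19a1 had 4 to 28 counts in germ and 0 to 4 in somatic libraries, and DESeq2 called it higher in germ cells with dex (adjusted p 0.00141).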
